A study of Mus musculus with 14 samples.

Results

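Complement is a system of plasma and cell-surface proteins, and 7 of its genes were followed through the mouse ileum, the end of the small intestine. They are C3, C4b, C2, Cfb, Cfi, Cd55 and Serping1. They were taken by symbol from the authors' deposited expression table and make up 7 of its 46882 entries. They were chosen with their levels and differences in these libraries already known. Their own values are therefore given as a description, with no test.

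The tissue was whole ileum of wild-type C57BL/6N mice, an inbred strain, in 14 libraries. Untreated mice were sampled before weaning at postnatal day 14 (P14, 4 libraries) and after it at day 24 (P24, 4 libraries). The other mice were injected into the peritoneum with recombinant mouse interleukin-22 (rmIl22, 3 libraries; 0.1 µg per g body weight in 100 µL) or with 100 µL of phosphate-buffered saline (PBS, 3 libraries). They were injected on days 14 and 15 and killed on day 16, per the study's design text. The deposited age field gives day 14 for PBS and day 24 for rmIl22, so groups were taken from the sample titles. The series asks what changes at weaning and what interleukin-22, a cytokine that acts on epithelial cells, does to the mucin layer of the gut surface.

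The complement cascade can be started by antibody and C1 (the classical route), by sugar-binding lectins, or by the alternative route, which is always slightly active. All routes meet at C3, whose fragment C3b coats surfaces and leads on to the terminal pore. Regulators in plasma and on host cells cut or take apart the enzymes that cleave C3. Much of the complement in plasma is made by the liver, and intestinal epithelial, stromal and immune cells also make some of these proteins.

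Of the 7 genes, C3, C4b, C2 and Cfb encode parts of the C3-cleaving enzymes, and Cfi, Cd55 and Serping1 encode regulators. On the mm10 genome, with the GENCODE M21 annotation, all are protein coding. C4b (34728380 to 34743882), Cfb (34856374 to 34862518) and C2 (34862604 to 34898265) lie on the minus strand of chromosome 17. C3 lies farther along that chromosome, at 57203970 to 57228136, also on the minus strand. Cfi lies on the plus strand of chromosome 3 (129835884 to 129875332). Cd55 (chromosome 1, 130439027 to 130462744) and Serping1 (chromosome 2, 84765387 to 84775444) lie on minus strands. Cfb and C2 are neighbours with 85 bases between them. The annotated gene Gm20547 overlaps both on the same strand, and it was listed at 0 in every library.

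Promoter sequences were on hand for 2 of the 7 genes, C3 and Cd55. Both are shown because no others were on hand. Their levels ordered the groups differently: C3 was lowest in P14, whereas Cd55 was lowest in PBS. A link between sequence and level was not tested. The 250 bases before each start are from RefSeq on build GRCm38.p6, chr17:57228137-57228386 for C3 and chr1:130462745-130462994 for Cd55, both from the minus strand and written 5′ to 3′. Capitals mark the single motif match found.
C3: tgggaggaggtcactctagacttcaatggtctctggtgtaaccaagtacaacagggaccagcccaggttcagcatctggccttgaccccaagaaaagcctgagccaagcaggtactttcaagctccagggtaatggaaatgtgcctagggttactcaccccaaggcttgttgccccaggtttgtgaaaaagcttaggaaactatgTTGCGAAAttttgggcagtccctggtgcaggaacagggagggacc
Cd55: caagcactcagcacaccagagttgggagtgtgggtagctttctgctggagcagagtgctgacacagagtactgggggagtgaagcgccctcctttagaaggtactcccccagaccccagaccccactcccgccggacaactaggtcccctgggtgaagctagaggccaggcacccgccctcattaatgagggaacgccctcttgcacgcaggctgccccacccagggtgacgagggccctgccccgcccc
Both strands were searched for TTCNNNGAA (the STAT site), the kappaB consensus, TTGCNNAA (a site of the C/EBP type) and TGANTCA (the AP-1 site). In C3 the match was TTGCGAAA, 45 to 38 bases before the start, and Cd55 held none of the 4 motifs. Among 32851 promoters of the same length, 9.56% held TTGCNNAA, 7.02% the STAT site, 7.25% the kappaB consensus and 6.75% the AP-1 site. GC content was 52.0% in C3 and 64.0% in Cd55.

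Levels are in TPM, an abundance that divides reads by gene length and sums to the same total in each library, so genes can be compared. Whole reads recovered from the TPM came to 35.6 to 46.5 M per library (median 42.7 M). The 7 genes had between 177 reads (C4b) and 9561 reads (C3) in a library, and all 7 passed the filter on low values. Epithelial markers summed to 6103 to 13456 TPM, and the defining hepatocyte marker Alb reached at most 0.181 TPM. Library 2 of rmIl22 stood apart: its neutrophil markers summed to 1074 TPM. The other rmIl22 libraries held 18.0 and 197 TPM, and PBS 27.4 to 97.9 TPM. The sum in library 2 was mostly S100a8 (400.3 TPM) and S100a9 (627 TPM). Csf3r (6.71 TPM) and Ly6g (1.38 TPM) were also highest there. Retnlg was higher in rmIl22 library 3 (44.2 TPM, against 38.5 TPM in library 2), and so was Mpo. The fibroblast markers of library 2 summed to 442 TPM, against 975 and 959 TPM in the other rmIl22 libraries. This library had the highest level of its group for 7 of the 7 genes. The labels call the replicates biological without naming animals or litters, so the spread given is that between these libraries. In whole tissue, fewer cells of a type and less RNA per cell cannot be told apart.

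The order of the 7 genes differed between the ages. At P14 the highest means were those of Cd55 (43.9 TPM) and C2 (43.1 TPM), which did not differ beyond their spread, then Cfi (29.5), Serping1 (26.3), C3 (20.1), Cfb (13.3) and C4b (2.00). At P24 C3 came first (54.2 TPM), then Cd55 (45.0), Serping1 (27.2), Cfb (12.2), Cfi (8.34), C2 (5.84) and C4b (3.54), and the ranges of C3 and Cd55 overlapped. C3 divided by C2 within a library was 0.270 to 0.710 at P14 and 7.39 to 11.9 at P24. In the mice killed on day 16 it lay between, at 1.75 to 2.20 in PBS and 2.08 to 3.22 in rmIl22.

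**Figure D1:**
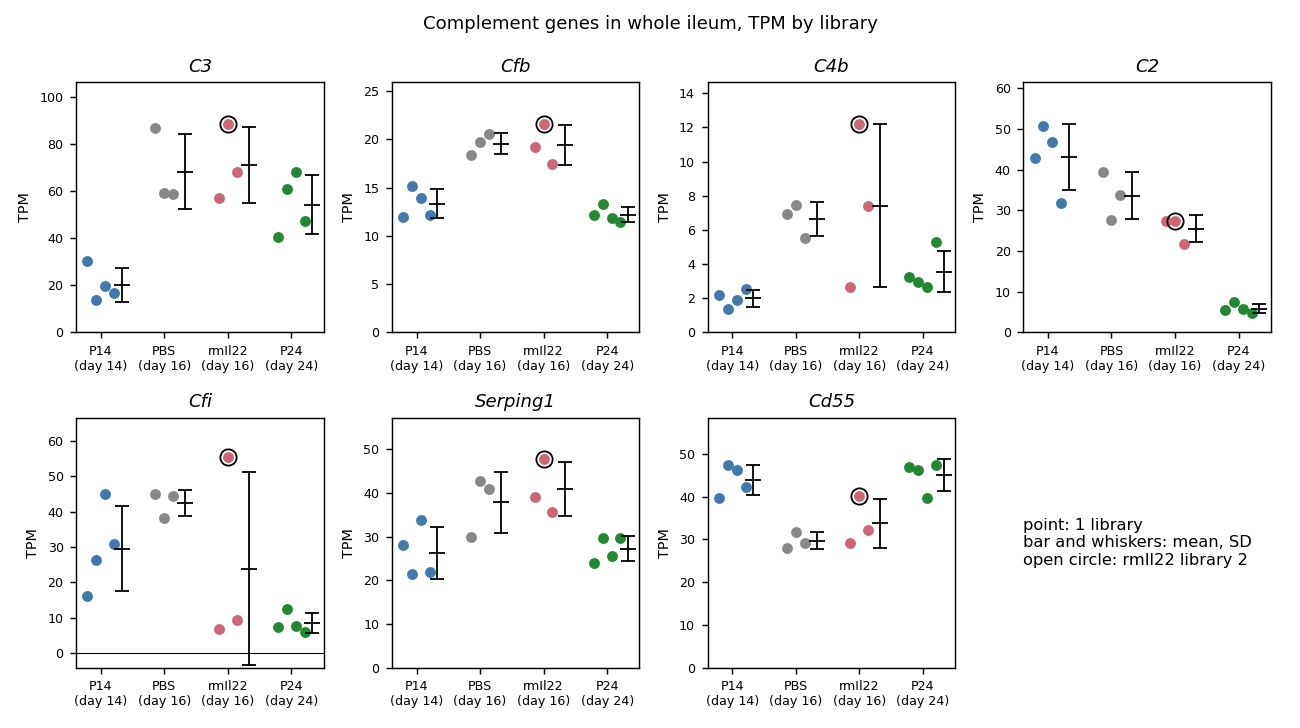
TPM of the 7 complement genes in each of the 14 libraries, in panels by gene, with groups on the x axis. Points are libraries, the bars beside them are mean and SD, and the open circle is rmIl22 library 2; C2 lies at 31.9 to 50.7 TPM in P14 and 4.77 to 7.36 TPM in P24.

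C3, the central component, stood at 30.5, 13.7, 19.5 and 16.9 TPM in P14 libraries 1, 2, 4 and 5. In P24 libraries 1, 2, 6 and 8 it stood at 40.7, 60.9, 68.2 and 47.1 TPM. All P24 libraries were above all P14 libraries, and the mean went from 20.1 ± 7.28 to 54.2 ± 12.6 TPM (SD, n = 4 each), a ratio of 2.69. On the log2(TPM + 1) scale used for all differences here, which understates changes of low genes, the difference was 1.42 (SE 0.22). In PBS C3 was at 86.8, 59.2 and 58.9 TPM and in rmIl22 at 56.9, 88.5 and 68.0 TPM. The ranges of the injected groups overlapped, with means of 68.3 ± 16.0 and 71.2 ± 16.0 TPM (SD, n = 3 each) and a log2 difference of 0.06 (SE 0.21). Every PBS library was above every P14 library, with a ratio of means of 3.39.

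C4b encodes the C4 protein, which joins C2 in the C3-cleaving enzyme of the classical and lectin routes. It was the lowest of the 7 genes in all 4 groups. Its P14 libraries held 2.18, 1.39, 1.87 and 2.54 TPM and its P24 libraries 3.27, 2.93, 2.66 and 5.31 TPM. The groups did not overlap, the closest libraries being 2.54 and 2.66 TPM, and the log2 difference was 0.58 (SE 0.18). PBS held 6.92, 7.46 and 5.51 TPM, all above both untreated groups. The rmIl22 libraries spread from 2.67 TPM in library 1 through 7.39 TPM in library 3 to 12.2 TPM in library 2, on both sides of PBS. The log2 difference of rmIl22 from PBS was -0.03 (SE 0.42), and -0.45 (SE 0.32) without library 2. C4a, a near copy of C4b, had 5 to 25 reads in a library, and reads that both genes share could be split by the counting.

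C2, the protease that C4 recruits, showed the largest difference between the ages among the 7 genes. It was at 42.9, 50.7, 46.9 and 31.9 TPM in P14 and at 5.51, 7.36, 5.72 and 4.77 TPM in P24. The lowest P14 library was far above the highest P24 library. The means were 43.1 ± 8.12 and 5.84 ± 1.09 TPM (SD, n = 4 each), 7.38-fold higher at P14, and the log2 difference was -2.68 (SE 0.15). PBS stood at 39.4, 27.7 and 33.8 TPM and rmIl22 at 27.3, 27.5 and 21.7 TPM. All rmIl22 libraries were below all PBS libraries, but the closest values were 27.5 and 27.7 TPM. The log2 difference was -0.38 (SE 0.16), and -0.43 (SE 0.17) without rmIl22 library 2. Zbtb12, on the strand opposite to part of C2, had means of 4.92, 3.83, 3.92 and 2.04 TPM in P14, PBS, rmIl22 and P24.

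Cfb is the counterpart of C2 in the alternative route and its neighbour in the genome. Its values were close together at both ages, at 12.0, 15.2, 13.9 and 12.2 TPM in P14 and 12.2, 13.3, 11.9 and 11.4 TPM in P24. The ranges overlapped, with a log2 difference of -0.11 (SE 0.10). Scaling the libraries to equal medians or quantile normalisation turned this to 0.17, so no direction is given for Cfb between the ages. The injected mice had more: 18.4, 19.7 and 20.6 TPM in PBS and 19.2, 21.6 and 17.5 TPM in rmIl22. Both injected groups lay above all untreated libraries and overlapped each other (rmIl22 minus PBS -0.01, SE 0.12).

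Cfi, a plasma protease that inactivates C3b and the matching C4 fragment, was the most variable of the regulators. P14 held 16.0, 26.2, 45.1 and 30.7 TPM and P24 held 7.45, 12.4, 7.67 and 5.88 TPM, without overlap. The mean was 3.54-fold higher at P14, with a log2 difference of -1.66 (SE 0.27). PBS was even, at 44.9, 38.3 and 44.4 TPM. In rmIl22 libraries 1 and 3 Cfi was at 6.87 and 9.29 TPM, below every PBS library, whereas library 2 was at 55.5 TPM, above every PBS library. The log2 difference was -1.39 (SE 0.67) with all libraries and -2.27 (SE 0.15) without library 2, whose neutrophil and fibroblast sums are given above. The part of those cells in the spread of Cfi was not tested.

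Cd55, the membrane protein that speeds the decay of C3-cleaving enzymes on host cells, overlapped between the ages. It was at 39.7, 47.4, 46.2 and 42.3 TPM in P14 and 47.0, 46.1, 39.6 and 47.4 TPM in P24. The log2 difference was 0.04 (SE 0.10). PBS was lower than every untreated library, at 27.9, 31.8 and 29.2 TPM. The rmIl22 libraries were at 29.1, 40.1 and 32.1 TPM and overlapped PBS (log2 difference 0.17, SE 0.14, and 0.05 without library 2). An antisense gene over Cd55, Gm16083, had group means of 0.0353 to 0.169 TPM.

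Serping1 encodes the C1 inhibitor, which blocks the proteases that start the classical and lectin routes. It was at 28.0, 21.4, 33.8 and 21.9 TPM in P14 and 24.0, 29.7, 25.6 and 29.6 TPM in P24, with overlapping ranges and a log2 difference of 0.07 (SE 0.14). PBS stood at 29.9, 42.7 and 41.0 TPM and rmIl22 at 39.2, 47.7 and 35.7 TPM. These overlapped too, with a log2 difference of 0.11 (SE 0.17). PBS library 1 lay within the P14 range and the other PBS libraries above it.

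Between the ages, C3 and C4b (higher) and C2 and Cfi (lower) had groups that did not overlap, against 52.4% of all genes tested (13.0% higher and 39.4% lower). As the genes were chosen on these differences, nothing is read from this count. The median log2 difference was 0.04 over the 7 genes and -0.25 over all genes tested. Relative to that shift, with libraries scaled to equal medians, the age differences were 1.71 for C3, 0.79 for C4b, -2.40 for C2 and -1.38 for Cfi. They were 0.33 for Cd55 and 0.36 for Serping1. Fibroblast markers fell, 5 of 8 tested, from sums of 670.1 to 1302 TPM in P14 to 411 to 549 TPM in P24. Of 8 epithelial markers 3 rose, with sums of 6103 to 7767 TPM in P14 and 10853 to 13456 TPM in P24. Krt8 (1345 to 1716 and 3719.7 to 4807 TPM), Krt20 (59.8 to 92.9 and 1465 to 1841 TPM) and Vil1 did not overlap between the ages. Epcam (1986 to 2596 and 2059 to 2746 TPM), Cdh1, Cdx2, Lgals4 and Cdx1 overlapped. Of 7 macrophage and dendritic cell markers 1 rose and 3 fell, with overlapping sums (129 to 196 and 147 to 278 TPM). Sums of B and plasma cell markers did not overlap between P14 and P24 (5.95 to 45.7 and 65.6 to 372 TPM, 3 of 6 tested rose). Nor did those of T and NK cell markers (5.11 to 13.3 and 16.7 to 38.0 TPM, 3 of 6 rose). In these lists Igkc, Igha, Jchain, Gzma and Gzmb did not overlap between the ages. The B cell markers Cd79a, Cd79b, Ms4a1 and Pax5 overlapped, as did Cd3e, Cd3g, Cd8a, Cd4, Trac and Nkg7. Mesothelial markers summed to 35.4, 16.9, 22.3 and 19.2 TPM in the P14 libraries and 35.8, 52.7, 60.0 and 35.6 TPM in the P24 libraries, and 1 of 4 tested rose. The part of these cells in the differences was not tested. The authors' deposited table gave log2 fold changes of 1.75 for C3, 1.10 for C4b, -2.55 for C2, -1.48 for Cfi, 0.20 for Cfb, 0.35 for Cd55 and 0.38 for Serping1.

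Between rmIl22 and PBS, C2 was the single gene of the 7 without overlap, against 21.1% of all genes tested (5.62% higher and 15.4% lower). The authors' deposited table of this comparison listed 0 of the 7 genes, but it holds 1102 genes, against 23527 in their age table. The median log2 difference was -0.01 over the 7 genes and -0.05 over all genes tested.

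**Figure D2:**
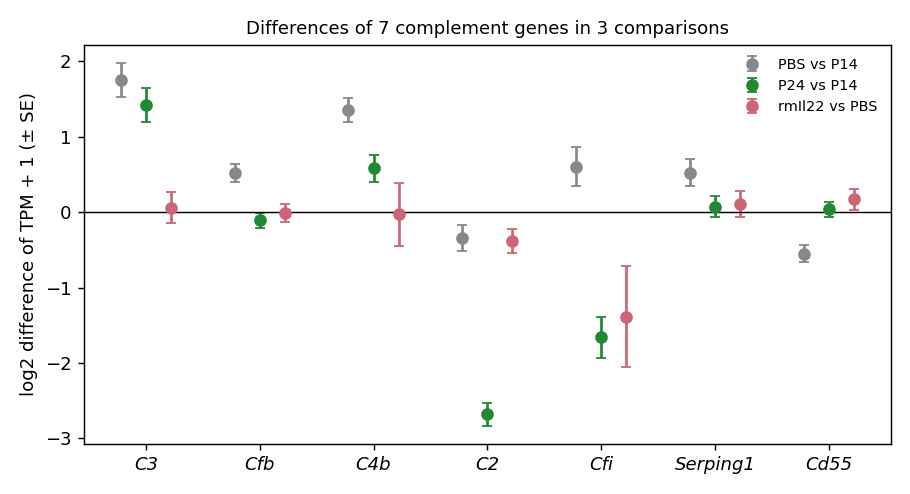
Log2 difference of each of the 7 genes (x axis) in the 3 comparisons (y axis, log2(TPM + 1) scale), with SE as bars. C2 and C3 lie farthest apart between the ages, at -2.68 and 1.42, and the rmIl22 values lie between -0.38 and 0.17 except for Cfi at -1.39 with an SE of 0.67.

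PBS was also set against P14, a comparison added after the data were seen. These groups differ both in day (16 against 14) and in injection, which cannot be told apart, and the P14 libraries are those of the age comparison. The log2 differences were 1.75 (SE 0.23) for C3, 1.35 (SE 0.16) for C4b, 0.52 (SE 0.12) for Cfb and -0.55 (SE 0.11) for Cd55. They were -0.34 (SE 0.17) for C2, 0.60 (SE 0.26) for Cfi and 0.52 (SE 0.18) for Serping1. C3, C4b, Cfb and Cd55 had groups that did not overlap, against 16.6% of all genes tested (9.02% higher and 7.56% lower). Macrophage and dendritic cell markers summed to 129 to 196 TPM in P14 and 253 to 298 TPM in PBS, with 0 of 7 tested markers called. In this list Lyz2 (26.1 to 92.9 TPM in P14 and 133 to 173 TPM in PBS), Csf1r and Cd68 did not overlap. Mrc1, Cx3cr1, Adgre1, Itgax and Flt3 overlapped. The part of these cells in the differences of PBS from P14 was not tested.

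The genes most like each of the 7 over the 14 libraries were found by the root mean square difference of log2 TPM + 1 after centring each gene. The search covered 15695 genes, all 14 libraries are shared, and the values are a description. C2, whose own spread was 1.12, had close neighbours in Man2b1 (0.14), which encodes a lysosomal mannosidase, Grn (0.18), which encodes progranulin, and Xxylt1 (0.19). Serping1 (own spread 0.34) was nearest to C1s1 (0.15), which encodes the C1s protease that the C1 inhibitor blocks, Mmp19 (0.15), a matrix metalloproteinase, and Anxa3 (0.19). Cfb (0.31) was nearest to Degs2 (0.12), App (0.13) and Slc6a9 (0.13). C4b (0.70) was nearest to Slfn1 (0.30), Clec4a3 (0.31) and Cfp (0.34), the last of which encodes properdin. C3 (0.82) had no neighbour nearer than Slc52a3 and Clec4a3 (0.47 each), then Cd302 (0.48). Cfi (1.09) was nearest to Slc16a6 (0.33), Zfpm1 (0.40) and Gpr155 (0.42). Cd55 (0.27) was nearest to RP23-402P24.5 (0.15), Ift22 (0.17) and Snora68 (0.17). Among the 7 genes, the closest pair was Cfb and Serping1 (0.21) and the most distant C2 and C3 (1.60). C3 and C4b differed by 0.54, and the neighbours C2 and Cfb by 1.00.

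The rest of the complement system was read from a list of 49 other genes, and of these the tests are reported. Protein was not measured. The filter on low values of the age comparison left 24 of the 49 genes untested, against 32204 of all 46855 genes. At the level of RNA, 18 of the 49 genes were under 1 TPM in every library. The share of all genes under that limit is not given, so nothing is read from this count. The 18 genes include some with more reads, such as Cd46 (at most 173 reads in a library). Also among the 18 were Hc, which encodes C5 (at most 19 reads in a library), and C8a and C8b of the terminal pore (at most 1 and 4 reads). The lectin route protease Masp2 was another (at most 4 reads). The mannose-binding lectin Mbl1 and Cfhr3 had no reads in any library. In contrast, the C1q chains were abundant, C1qb for example at 42.0 ± 6.20 TPM in P14 and 49.5 ± 7.11 TPM in P24.

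Between the ages, 25 of the 49 genes were tested by limma, 4 rose, 7 fell and 14 did not pass, at an adjusted p under 0.05. Among all 14651 genes tested, 58.3% were called, 14.6% higher and 43.7% lower. With libraries scaled to equal medians 9 rose and 5 fell, so the balance depends on the scaling. The median log2 difference of the 25 was -0.02. By role, both alternative route genes, Cfd and Cfp, rose, 0 of 5 classical genes passed, and 2 of 4 terminal and 3 of 4 soluble regulator genes fell. Among 6 receptors 1 rose and 1 fell, and of 2 lectin genes 1 rose and 1 fell. In the authors' deposited table some calls differed, at their adjusted p under 0.05. There C1qa, C1qb and C1qc rose (log2 fold changes 0.37, 0.55 and 0.41), as did the terminal gene C7 (0.84). The receptor genes C3ar1 (0.56) and C1qbp (0.36) and the soluble regulator Clu (1.78) rose there too, but were not called by limma here. The soluble regulator Cfhr2 (-0.34) did not pass there. The classical genes C1ra (0.0 there) and C1s1 (0.07 there) passed in neither.

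Cfd, which encodes factor D, the protease that activates factor B, was at 27.3, 0.242, 13.7 and 12.0 TPM in P14 and 113, 204, 152 and 157 TPM in P24. All P24 libraries were far higher, with a log2 difference of 4.09 (SE 0.73, limma adjusted p = 5.88e-04). Cfd is abundant in fat cells, and the adipocyte marker Adipoq stood at 12.8, 0, 7.33 and 5.08 TPM in P14 and 32.0, 57.9, 33.8 and 44.7 TPM in P24. Of 5 tested adipocyte markers 4 rose and 1 fell, and their sums were 129 to 181 TPM in P14 and 194 to 343 TPM in P24. P14 library 2 was lowest for both Cfd and Adipoq, and the part of fat cells in the difference was not tested. Cfp, which encodes properdin, the stabiliser of the alternative route enzyme, rose from 4.53 ± 1.15 to 7.50 ± 1.85 TPM (SD, n = 4 each; limma adjusted p = 0.0135), with overlapping ranges. The Cfp call was lost in a fit of all 14 libraries (limma adjusted p = 0.0538).

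Of the terminal genes, C9, which forms the wall of the pore, was at 1.62, 2.15, 1.47 and 1.07 TPM in P14 and had 0 to 3 reads in each P24 library. C8g, a subunit of C8, fell from 2.85 ± 0.442 to 0.787 ± 0.182 TPM. Both, like the regulator Vtn, met the filter on low values through P14, the group where they are high: 0 of the P24 libraries reached 1 TPM for C9, and 1 each for C8g and Vtn. With no filter, limma gave them adjusted p = 8.91e-05 (C9), 3.66e-04 (C8g) and 0.0423 (Vtn). Cpn1, the catalytic subunit of the carboxypeptidase that trims the C3a and C5a peptides, was at 35.9, 34.7, 24.9 and 18.3 TPM in P14 and 4.93, 4.49, 6.11 and 11.0 TPM in P24. It fell by 1.97 on the log2 scale (SE 0.26, limma adjusted p = 5.53e-05). These genes are known as liver products, and of 4 tested hepatocyte markers 3 fell. The sums of that list were 140.3 to 182 TPM in P14 and 4.96 to 9.14 TPM in P24, mostly Ttr (128 to 165 and 3.53 to 7.79 TPM), with its defining markers Alb and Ahsg near 0 in both groups. The soluble regulators Cfhr2 (log2 difference -0.59, limma adjusted p = 0.0403) and Vtn (-0.54, limma adjusted p = 0.0175) fell too. Both lost the limma call with libraries scaled to equal medians (adjusted p = 0.196 and 0.0525). The Cfhr2 call was also lost with no filter (limma adjusted p = 0.112), after quantile normalisation and in a fit of all 14 libraries. Leaving out single libraries lost it in several cases, and the Vtn call was lost without P14 library 1 or 4.

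Fcna, a ficolin that recognises sugars, rose from 1.72 ± 0.709 to 3.29 ± 0.692 TPM, and the collectin Colec10 fell from 21.2 ± 5.44 to 12.0 ± 0.934 TPM (SD, n = 4 each; limma adjusted p = 0.00842 and 0.00230). Itgam, a chain of complement receptor 3 on myeloid cells, rose from 3.26 ± 0.697 to 6.08 ± 0.774 TPM (limma adjusted p = 6.87e-04). Cd93, a membrane protein of endothelial and myeloid cells, fell from 16.0 ± 3.19 to 7.39 ± 0.706 TPM (limma adjusted p = 5.60e-05). Endothelial markers fell as well, 5 of 6 tested, from sums of 42.7 to 65.9 TPM to 25.1 to 31.1 TPM, and their part in the fall of Cd93 was not tested.

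**Figure D3:**
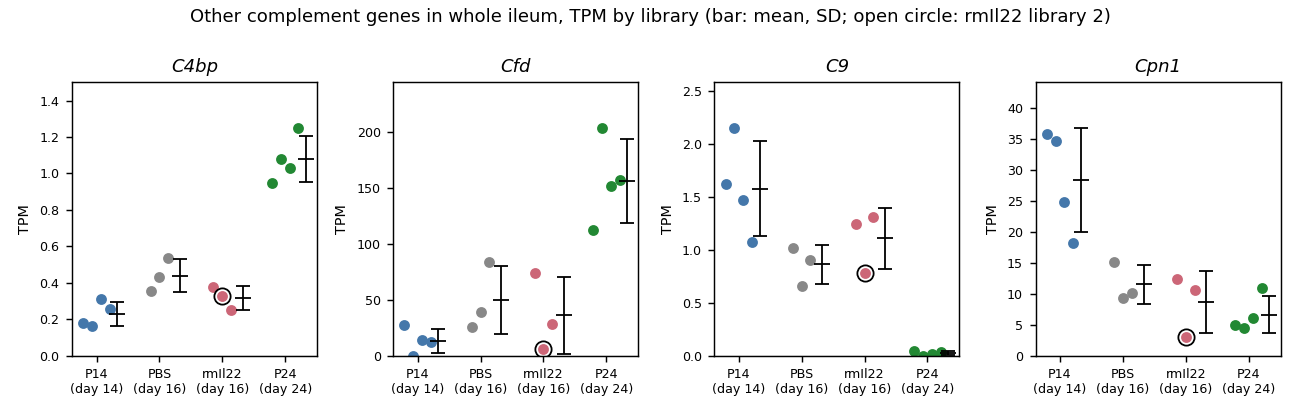
TPM of 4 other complement genes, C4bp, Cfd, C9 and Cpn1, in each of the 14 libraries, with groups on the x axis, mean and SD beside the points and rmIl22 library 2 as an open circle. C4bp is at 0.950 to 1.25 TPM in P24 and at 0.537 TPM or less in all other libraries.

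After rmIl22, 28 genes of this list were tested, and 0 passed by limma or by limma voom on the recovered reads, beside 2.69% called among all 14456 genes tested (0.443% higher and 2.25% lower). At an unadjusted p under 0.05, 4 were lower (C8g, Cd59b, Clu and Itgax) and 0 higher. No share of all genes at that unadjusted threshold is given, so nothing is read from this count. C8g was at 3.47, 2.66 and 3.48 TPM in PBS and 1.41, 2.00 and 1.92 TPM in rmIl22, without overlap. In a fit of all 14 libraries it was among 2 genes of this list called, with a log2 difference of -0.60 (limma adjusted p = 0.0232). Cd59b was at 1.62 to 1.78 TPM in PBS and 0.767 to 0.835 TPM in rmIl22, also without overlap. Its log2 difference was -0.59 on the libraries of this comparison (limma adjusted p = 0.0834). The median log2 difference of the 28 was -0.18.

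The rmIl22 change was also tested against the age change for the same genes, in a fit of all 14 libraries, where 23.8% of all genes tested differed. Of 30 tested complement genes 4 differed: Cfd, C9, C4bp and Cd93. The difference of the log2 changes, rmIl22 minus age, was 1.49 for C9, which stood at 0.659 to 1.02 TPM in PBS and 0.780 to 1.31 TPM in rmIl22. C4bp, which encodes a plasma regulator that binds C4b, gave -0.89. Of the libraries of this contrast, C4bp reached 1 TPM in 3 of P24 and in 0 of the other groups, and C9 in 0 of P24, so both entered through the groups where they are high. With no filter, limma gave the contrast adjusted p = 6.24e-04 for C9 and 2.34e-04 for C4bp. C4bp stood at 0.228 ± 0.0671 TPM in P14 and 1.08 ± 0.127 TPM in P24, and 0.440 ± 0.0920 and 0.318 ± 0.0645 TPM in PBS and rmIl22.

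In PBS against P14, 27 of the 49 genes were tested by limma, 4 rose and 1 fell, beside 4.33% called among all 14782 genes tested (2.92% higher and 1.41% lower). C1qb went from 42.0 ± 6.20 to 66.4 ± 13.7 TPM and C1ra, a protease of C1, from 8.45 ± 1.87 to 13.9 ± 1.81 TPM (limma adjusted p = 0.0483 and 0.0432). C6, the terminal component that binds C5b, rose from 1.14 ± 0.356 to 2.91 ± 0.788 TPM, and Cfp from 4.53 ± 1.15 to 8.04 ± 1.02 TPM (limma adjusted p = 0.0237 and 0.0357). Cpn1 fell from 28.4 ± 8.36 to 11.6 ± 3.18 TPM (limma adjusted p = 0.0136). With no filter, 0 of these 5 were called by limma, with adjusted p from 0.114 to 0.166. C1qb and Cfp also lost the call with libraries scaled to equal medians, after quantile normalisation and by limma voom. C1qb lost it with a pseudocount of 0.1 or 0.5 as well. In a fit of all 14 libraries Cfp, C1ra, C6 and Cpn1 lost it. Without PBS library 3, 1 gene of the 49 was called, and without PBS library 2 or P14 library 2, 2 genes. At an unadjusted p under 0.05, 13 genes were higher and 2 lower. The share of all genes at that unadjusted threshold is not given, so nothing is read from this count.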

How the data were processed

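The authors' deposited table gives TPM for each gene symbol in 14 ileum libraries, and 2 deposited tables give their log2 fold changes and adjusted p-values. Per the submitters' processing notes, STAR 2.4.0f, HTSeq 0.6.1p1, FastQC 0.11.2, DESeq2 1.14 and mm10 were used. What each tool did, the annotation and whether counting used strand were not stated, so overlapping and antisense genes are uncertain. Libraries were made from ribosomal RNA-depleted total RNA with a stranded kit, per the labels. The P14 and P24 columns carry numbers that are not the labels' replicate numbers and were assigned to groups only.

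The 7 genes and all lists were chosen with earlier results of these data known. Log2(TPM + 1) was tested with limma 3.58.1 (R 4.3.3, empirical Bayes with intensity trend, two-sided), each comparison on its own libraries. Genes were tested if they reached a TPM of 1 in 4 or more libraries (P24 vs P14), or in 3 or more. The Benjamini-Hochberg adjustment covered every gene tested, and 0.05 was the threshold. A further complement gene is not reported here and is in none of the counts. Of the 49 other complement genes, those called in a comparison and those near 0 are named; the genes called in PBS vs P14 or in the test of the difference of changes alone (C1qb, C1ra, C6, C4bp) were named after their values were seen. Whole reads (within 0.0001) were recovered from the TPM for 100.0% of 31189 genes with a value above 0, as the smallest whole numbers in proportion, so genes whose reads share a factor can be undercounted. Of the table's entries, 27 with symbols turned into date numbers were left out. The test and the recovery were tested on simulated data. Alternatives were other pseudocounts (0.1, 0.5), no filter, median scaling, quantile normalisation, a fit of all 14 libraries, limma voom on the recovered reads, a replicate block and leaving out each library.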

Additional observations from a re-analysis of the deposited data

Results flagged for a closer look

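In groups of 4 libraries, a library stood apart from the others by Dixon's criterion in 2 of 44 groups looked at, and chance gives about 1 in 20. Both were P14 library 4, with 4.31 TPM of Itgam against 2.86 to 2.95 TPM in the others and 20.8 TPM of Cd93 against 14.2 to 14.6 TPM. That library also had the highest fibroblast marker sum of P14, 1302 TPM, and the part of those cells was not tested.

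The change after rmIl22 differed from the change with age for 4 complement genes outside the 7, by a contrast of both changes in limma. The difference on the log2 scale was -4.96 for Cfd (SE 1.28, adjusted p = 0.0139), 1.49 for C9 and -0.89 for C4bp (adjusted p = 6.24e-04 and 2.34e-04 with no filter on low values, which both genes met through the groups where they are high) and 1.01 for Cd93 (SE 0.20, adjusted p = 0.00305). These held under all alternatives in which the gene was tested, 19 each and 16 for C4bp. Without P24 library 2, 6 or 8, C4bp missed the filter on low values and was not tested. For Cfd the adipocyte marker Adipoq moved alongside, at 7.57, 9.98 and 31.9 TPM in PBS and 20.6, 1.23 and 9.26 TPM in rmIl22, with Cfd at 25.9, 39.0 and 84.2 TPM and 74.2, 5.94 and 28.1 TPM.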

How the results depend on the processing

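No called value reversed; Cfb between the ages went from -0.11 to 0.17 under median scaling and quantile normalisation. Between the ages, 8546 genes were called (2146 higher, 6400 lower), 7569 to 9086 when 1 library was left out. Median scaling gave 4307 higher and 4166 lower, and quantile normalisation 4041 and 4603. Of the other complement genes 11 were called, 10 to 15 without 1 library, and 8 rose and 6 fell after quantile normalisation. After rmIl22, 389 genes were called, 98 with no filter, 1058 in the fit of all 14 libraries and 4 to 1324 without 1 library, with 4, 14 and 118 without PBS library 3, 1 and 2, and 129, 1324 and 121 without rmIl22 library 1, 2 and 3. Other complement genes called numbered 0, 2 in the fit of all 14 libraries and 0 without any 1 library. In PBS vs P14, 640 genes were called, 125 with no filter, 1286 with median scaling, 390 in the fit of all 14 libraries, 2236 by limma voom and 322 to 860 without 1 library (322 without PBS library 3, 336 without PBS library 2). Other complement genes called there numbered 5, 0 with no filter, 1 in the fit of all 14 libraries and 1 to 7 without 1 library (3 without P14 library 4). The 4 differences of changes numbered 7 with median scaling and 3 to 8 without 1 library (7 without P14 library 5, 8 without rmIl22 library 2). The cause was not tested, except that leaving out a library or a filter changes how many libraries or genes are tested. Of the values of the 7 genes, 9 of 105, 1 of 98 and 2 of 98 moved by more than 1 SD.

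The replicate numbers of PBS and rmIl22 gave no clear sign of pairing, by correlation of deviations from the group means. Same-numbered libraries correlated at -0.07, 0.33 and -0.05, and PBS 1 correlated best with rmIl22 3 (0.40). With 3 libraries in each group, these values cannot show whether same-numbered libraries share a litter or batch. With the replicate number as a block, 280 genes were called (59 higher, 221 lower), and 0 other complement genes. No paired analysis was possible for P14 and P24 because the columns do not carry the labels' replicate numbers. Genes under 1 TPM are limited by depth: counts of 0 to 3 reads, as for C9 at P24, give no reliable fold.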

Other observations

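Cr2, which encodes complement receptors 1 and 2 of B cells and follicular dendritic cells in the mouse, was uneven within groups. In P24 libraries 1, 2, 6 and 8 it stood at 3.43, 0.0558, 0.00549 and 5.96 TPM, and Clu, which encodes the soluble regulator clusterin, at 27.4, 4.25, 4.60 and 28.2 TPM. The B cell marker Cd79a was at 13.5, 0.307, 0.242 and 20.2 TPM and the follicular chemokine Cxcl13 at 39.6, 1.95, 1.65 and 41.3 TPM in the same libraries. Libraries 1 and 8 were high for all 4 genes. In P14 libraries 1, 2, 4 and 5, Cr2 was at 0.585, 0.0223, 0.0243 and 0.711 TPM and Clu at 7.50, 2.24, 3.46 and 8.88 TPM, again high in the libraries with more Cd79a (4.91 and 4.20 TPM, against 0.0614 and 0.301 TPM). Cr2 did not meet the filter in any of the 3 comparisons, and Clu did not pass between the ages (limma adjusted p = 0.130). In the authors' deposited table Clu did rise with age (log2 fold change 1.78, at their adjusted p under 0.05). These genes were chosen after their values were seen.

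Itgam and Itgb2, the chains of complement receptor 3, stood at 18.6 and 12.7 TPM in rmIl22 library 2, against 4.35 and 6.51 TPM (Itgam) and 4.37 and 7.91 TPM (Itgb2) in libraries 1 and 3. The neutrophil genes S100a8 (400.3 TPM) and S100a9 (627 TPM) were highest in that library.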
